A study of Mus musculus with 24 samples.

Results

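Gdf9, Bmp15, Fgf8, Oosp1, Oosp2, Oosp3 and Plat encode proteins that mouse oocytes release to the cells around them. The 7 symbols were matched to Ensembl identifiers through the GENCODE M21 annotation of the mouse genome build GRCm38, which found all 7 among the 55487 genes measured. Their levels were followed in 24 RNA sequencing libraries, each made from a pool of 5 oocytes or embryos. Nlrp14 knockout (KO) and wild-type (WT) mice gave 3 libraries each at 4 stages: oocytes at the germinal vesicle stage (GV), oocytes arrested in metaphase II (MII), PN5 zygotes, which are late pronuclear, and 2-cell embryos. This makes 8 groups, KO and WT at each stage. No treatment was named for any group. The sources used here do not give the strain, the age of the females, the deleted part of Nlrp14 or the genotype of the sires. The libraries are labelled as biological replicates. The p-values measure only the spread between these pools, and nothing in the labels ties a library to a single female.

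GDF9 and BMP15 are ligands of the TGF-beta superfamily. They act on granulosa and cumulus cells through the type II receptor BMPR2, type I receptors and SMAD transcription factors, and they drive follicle growth and cumulus expansion in mice. FGF8, a fibroblast growth factor, acts together with BMP15 on cumulus cell glycolysis in mice. OOSP1, OOSP2 and OOSP3 are oocyte-secreted proteins encoded by neighbouring genes. Plat encodes tissue plasminogen activator, a secreted protease, and its mRNA is a known example of a message that mouse GV oocytes store with a short poly(A) tail, then lengthen and translate during maturation.

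Values are FPKM as the authors deposited them, that is, sequenced fragments of a gene scaled by transcript length and by the mapped fragments of the library. They do not give molecules per embryo, and fewer cells of a type and less RNA per cell cannot be told apart in such bulk libraries. Differences are log2 differences of FPKM + 1 with their standard error (SE), KO minus WT or later minus earlier stage, tested with limma across all genes that reached 1 FPKM in at least 3 libraries. Called genes are those whose Benjamini-Hochberg adjusted p was under 0.05. This scale understates the change of a gene with low values, such as Fgf8. The share of all genes whose groups did not overlap was counted only for KO above WT at the 2-cell stage.

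The values implied a depth of 7.65 to 12.3 M fragments per library (M, 1e6), at which a single fragment in a 1-kb transcript counts as 0.0814 to 0.131 FPKM. Bmp15, which has 1 annotated transcript, rested on 4245 to 31182 fragments per library. Nlrp14 itself was lower in every KO library than in every WT library of its stage, and its KO mean was 1.46% of the WT mean at GV and 24.9% at the 2-cell stage. All 12 oocyte defining genes examined, such as Zp3 and Npm2, reached a mean of 1 FPKM in all 8 groups. The 24 granulosa and cumulus markers summed to 11.6 to 46.0 FPKM per library, of which at most 4 reached a mean of 1 FPKM in any group. The 12 sperm markers summed to 6.91 to 31.8 FPKM, and the 15 blood, stroma and oviduct markers to 1.56 to 186 FPKM. Among granulosa markers, Cyp19a1 was the most abundant at GV, MII and PN5 in both genotypes. It averaged 10.28 FPKM in KO and 6.541 FPKM in WT GV oocytes. At MII it averaged 19.13 FPKM in KO and 18.74 FPKM in WT, and at PN5 14.39 and 16.11 FPKM. It thus made up most of the mean sum of these markers at MII and PN5. Amh was at 0 FPKM in every group but WT GV oocytes, where it averaged 0.0346 FPKM.

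A few libraries stood apart in how level depended on exon length. Regressed on log2 length, log2 levels had a slope of -0.13 in KO GV replicate 3, against 0.00 to 0.04 in the other 5 GV libraries. The slope was -0.10 in KO MII replicate 2 and -0.04 in replicate 3, against 0.02 to 0.04 in the other MII libraries. At PN5 the slopes were 0.06 to 0.09 in the KO libraries, against -0.17, -0.07 and 0.02 in WT replicates 1, 2 and 3. Negative slopes mark libraries in which short genes read higher and long genes lower. The members span a wide range of lengths, from 678 nt of exon for Oosp2 to 6241 nt for Plat.

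The genes lie on 3 autosomes and the X chromosome. Gdf9 (ENSMUSG00000018238) lies on chromosome 11 (53431023 to 53437904, + strand), and Bmp15 (ENSMUSG00000023279) on chromosome X (6314107 to 6320721, - strand). Plat (ENSMUSG00000031538) lies on chromosome 8 (22757727 to 22782844, + strand). Fgf8 (ENSMUSG00000025219) lies on chromosome 19 (45736798 to 45742915, - strand). The Oosp genes stand side by side on the same chromosome, with Oosp2 (ENSMUSG00000055895) at 11647279 to 11660559 and Oosp1 (ENSMUSG00000041857) at 11667460 to 11691150, both on the - strand, and Oosp3 (ENSMUSG00000055933) at 11697055 to 11711874 on the + strand. The longest identical stretch between transcripts of any pair of them was 11 to 12 nt, so that their reads could be told apart. The only annotated gene overlapping a member was the pseudogene Gm19224, antisense within Oosp3, at 0 FPKM in all libraries.

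In GV oocytes of both genotypes Gdf9, Oosp1 and Oosp3 were among the most abundant genes of the whole transcriptome. Gdf9 averaged 2133 ± 736 FPKM in KO and 1876.5 ± 90.8 FPKM in WT oocytes (SD, n = 3 each), and ranked 14th among all genes in both. Oosp3 averaged 1766 ± 755 FPKM in KO and 1549.9 ± 174 FPKM in WT, and Oosp1 1623 ± 532 FPKM in KO and 1558 ± 146 FPKM in WT. Bmp15 stood lower, as did Oosp2, and Fgf8 was the least abundant member at 22.9 ± 2.74 FPKM in KO and 28.8 ± 3.81 FPKM in WT. In KO oocytes the order was Gdf9, Oosp3, Oosp1, Oosp2, Bmp15, Plat and Fgf8, and only Plat and Fgf8 were separated from the gene above them in all libraries. In WT the order was Gdf9, Oosp1, Oosp3, Oosp2, Bmp15, Plat and Fgf8. There, Oosp1 overlapped Oosp3 and Oosp2 overlapped Bmp15, and every other step in the order was free of overlap.

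No member passed the test between genotypes at GV, where 0 of 7 were called by limma, against 0.0430% of all genes tested, and 0 of 7 had an unadjusted p under 0.05, against 11.8% of all genes. The KO libraries were widely spread. Gdf9 had 2530.25, 2585 and 1283 FPKM in KO oocytes and 1914, 1943 and 1773 FPKM in WT oocytes. Plat had 266, 231 and 48.4 FPKM in KO and 208, 237 and 193 FPKM in WT. In both, KO replicate 3 lay below all others, while Oosp1, Oosp2 and Oosp3 were highest in it, and this is the library with the negative slope on length. Without that library Gdf9 was 0.45 higher in KO (adjusted p = 0.0185) and Bmp15 0.30 higher (adjusted p = 0.0376), so that 2 of 7 members were called, against 8.97% of all genes in that fit. The differences of Gdf9 and Bmp15 over all libraries were 0.12 (SE 0.28) and -0.16 (SE 0.36).

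**Figure D1:**
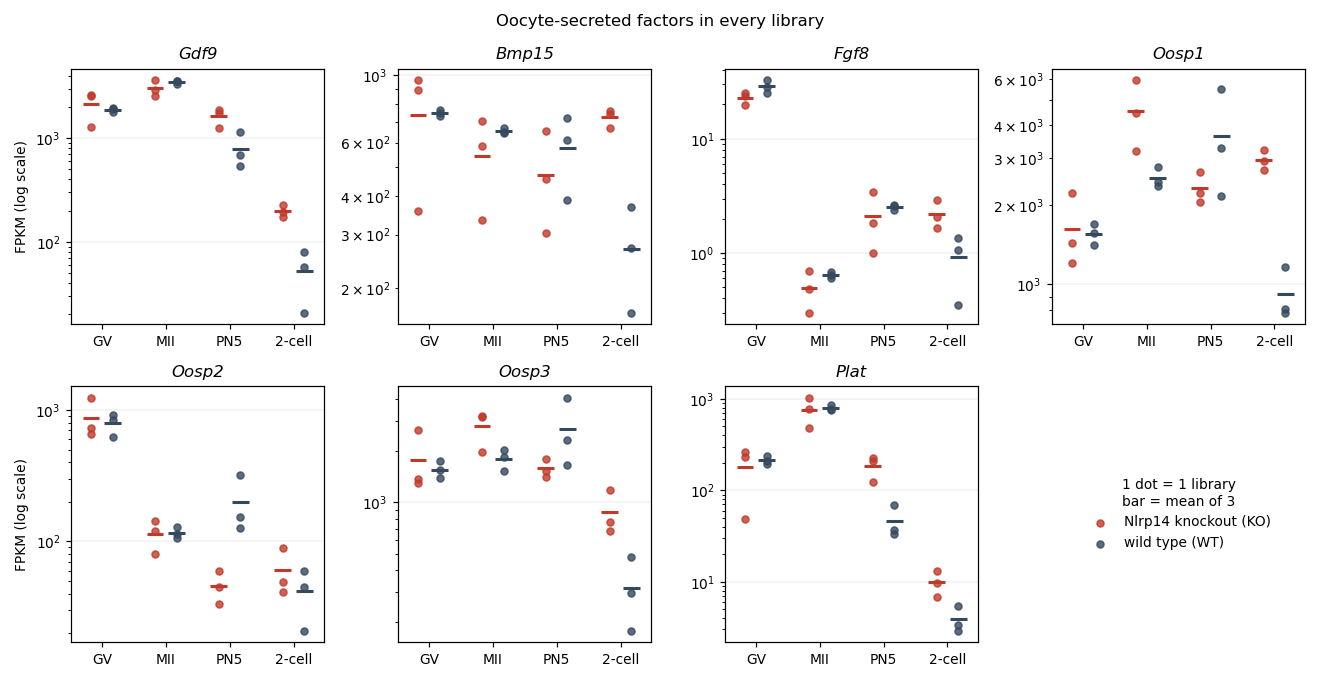
FPKM (log scale, each panel with its own range) of the 7 oocyte-secreted factors in every library, by stage, with KO left of WT. Dots are libraries and bars are means of 3. At the 2-cell stage all KO dots lie above all WT dots for every gene except Oosp2, as they do for 17.5% of all genes tested.

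Between GV and MII the members parted into genes whose share of the library went up and genes whose share went down, in both genotypes. Plat and Oosp1 rose in KO and in WT, Gdf9 was called higher in WT, and Fgf8 and Oosp2 fell in both. In KO, 2 of 7 members were called higher, against 20.8% of all genes tested, and 2 of 7 lower, against 48.2%. In WT, 3 of 7 were called higher, against 31.1% of all genes, and 3 of 7 lower, against 52.8%. The median over the members was 0.56 in KO, against -0.61 over all genes tested, and 0.21 in WT, against -0.50.

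Plat rose 4.19-fold in KO, with 1022, 483 and 779 FPKM at MII, against the GV values above, and the log2 difference was 2.33 (SE 0.63, adjusted p = 0.0111). In WT it rose 3.75-fold, with 771, 863 and 756 FPKM at MII (log2 1.90, SE 0.09, adjusted p = 5.01e-07). The MII libraries of each genotype lay above all its GV libraries. Oosp1 had 3204, 5938 and 4455 FPKM in KO MII oocytes, against 1439, 1207 and 2223 FPKM at GV (log2 1.48, SE 0.32, adjusted p = 0.00374). In WT it had 2353, 2775 and 2447 FPKM at MII, against 1696, 1405 and 1572 FPKM at GV (log2 0.70, SE 0.09, adjusted p = 0.000142). Neither pair of groups overlapped, and in KO MII oocytes Oosp1 was the 9th most abundant of all genes.

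Gdf9 was called higher at MII in WT, at 3333, 3548 and 3528 FPKM (log2 0.89, SE 0.06, adjusted p = 2.39e-06). In KO it had 3618, 2529 and 2926 FPKM, which overlapped the KO GV libraries (log2 0.56, SE 0.32, adjusted p = 0.152), and it was called in KO with median-of-ratios scaling (log2 1.12, adjusted p = 0.0116). Whether the changes of the genotypes differed was tested by the interaction, which for Gdf9 was -0.33 (SE 0.34, adjusted p = 0.901). Oosp3 averaged 2770.4 ± 690 FPKM in KO at MII and 1794 ± 256 FPKM in WT, and missed the threshold in both genotypes (adjusted p = 0.101 in KO and 0.144 in WT). It was called in KO without KO GV replicate 3 (log2 1.02, adjusted p = 0.00846) and in WT without WT MII replicate 3 (log2 0.32, adjusted p = 0.0257). With median-of-ratios scaling or with the length trend removed, it was called higher at MII in both, at 1.26 and 1.10 in KO and at 0.59 and 0.65 in WT.

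Fgf8 fell to 0.488, 0.698 and 0.300 FPKM in KO MII oocytes, against 23.6, 25.2 and 19.9 FPKM at GV, and to 0.645, 0.605 and 0.676 FPKM in WT MII oocytes, against 25.0, 28.7 and 32.6 FPKM at GV. It thus kept 2.17% of its GV mean in KO and 2.23% in WT, the smallest share among the members. The log2 differences were -4.00 in KO (SE 0.22, adjusted p = 4.63e-06) and -4.17 in WT (SE 0.12, adjusted p = 3.87e-08). Oosp2 kept 13.1% of its GV mean in KO, with 80.8, 143 and 121 FPKM at MII, against 656, 734 and 1236 FPKM at GV (log2 -2.90, SE 0.32, adjusted p = 0.000107). It kept 14.7% in WT, with 129, 107 and 114 FPKM at MII, against 922, 619.8 and 843 FPKM at GV (log2 -2.74, SE 0.15, adjusted p = 9.36e-07). Oosp2 and its neighbour Oosp1 thus moved in opposite directions in the same libraries, with no overlap between stages for either gene.

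Bmp15 had the smallest differences of the 7 members. It had 707, 334 and 587 FPKM in KO MII oocytes, against 960.4, 889 and 359.6 FPKM at GV, groups that overlapped (log2 -0.38, SE 0.44, adjusted p = 0.459). In WT it was called lower at MII, with 644, 672 and 649.99 FPKM, against 734, 751 and 769.5 FPKM at GV (log2 -0.20, SE 0.05, adjusted p = 0.00809), but higher with median-of-ratios scaling (log2 0.19, adjusted p = 0.0215). Median-of-ratios scaling shifted the median of all genes in this comparison by 0.32 in WT and 0.48 in KO, which is more than the Bmp15 difference itself. Its KO difference also turned positive with that scaling (log2 0.18, adjusted p = 0.693). For no member did the change from GV to MII differ between genotypes by limma, with 0 of 7 interactions called, against 0.120% of all genes, and 1 of 7, that of Oosp1, with an unadjusted p under 0.05, against 6.64% of all genes.

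The libraries were primed on poly(A) tails, as the SMART-Seq HT kit does, so tail length and the amount of an mRNA cannot be told apart. A list held 15 maternal mRNAs known to gain poly(A) during maturation, among them Mos and Btg4. All 15 were called higher at MII than at GV in both genotypes, against 20.8% of all genes in KO and 31.1% in WT. The list was chosen with earlier results of these data known. The list's median was 1.53 in KO, against -0.61 over all genes tested, and 1.27 in WT, against -0.50. Cnot7, a deadenylase subunit, averaged 118 ± 25.7 FPKM in KO MII oocytes and 27.4 ± 0.925 FPKM in KO GV oocytes (log2 2.04, SE 0.22), and 138 ± 5.21 FPKM and 37.0 ± 1.13 FPKM in the WT groups of the same stages (log2 1.87, SE 0.07).

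Cytoplasmic polyadenylation in mouse oocytes depends on U-rich elements close to the polyadenylation signal, to which CPEB1 binds. The annotated 3′ ends of the members were therefore searched on the transcribed strand for TTTTAT or TTTTAAT within 100 bases upstream of the last AATAAA or ATTAAA. The search was made with the expression values known, and a match is a description of the letters only. Gdf9 had 1 match, Oosp1 1, Plat 2 and Oosp3 4, each start of a match counted. Bmp15 and Oosp2 had none, and the annotated 3′ UTR of Fgf8 held no signal hexamer. The stretches shown run 5′ to 3′ from the element nearest the signal, or, for Bmp15 and Oosp2, up to the signal, and come from GENCODE M21 transcripts on GRCm38. Capitals mark the element in the genes that have it, and the signal in those that do not.
Gdf9 (chr11:53437866-53437887, + strand, 16 bases from the start of the element to the signal): TTTTATgtgacggaagaataaa
Oosp1 (chr19:11667550-11667579, - strand, 27 bases to the signal): TTTTAATtgtataaaatctgattaaagaat
Oosp3 (chr19:11711810-11711839, + strand, 30 bases to the signal): TTTTATcctttactgtaaccacaacctata
Plat (chr8:22782756-22782785, + strand, 60 bases to the signal): TTTTAATctattttagtttttactttgtta
Bmp15 (chrX:6314129-6314158, - strand): ttatgtattttcttaatcttaaagAATAAA
Oosp2 (chr19:11647300-11647329, - strand): gatcttattcctatacatcaatgaAATAAA

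The 4 members with an element were those with a positive MII difference in both genotypes. Bmp15 and Oosp2, which had a signal but no element, had a negative one. Bmp15, however, turned positive with median-of-ratios scaling and, in WT, with TPM (transcripts per 1e6, log2 0.09). Fgf8 also had a negative difference, but it held no signal, so the search could not be made in it. Of 18836 protein-coding genes with a signal, 15.9% held an element in this window. Among tested genes, the median difference from GV to MII in KO was 0.56 for 1368 genes with the element and -0.57 for 5672 genes without. In WT it was 0.59 for 1469 genes with the element and -0.42 for 6146 without. In KO, 45.1% of the genes with the element were called higher, against 19.7% of those without, and in WT 60.2% against 32.3%.

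**Figure D2:**
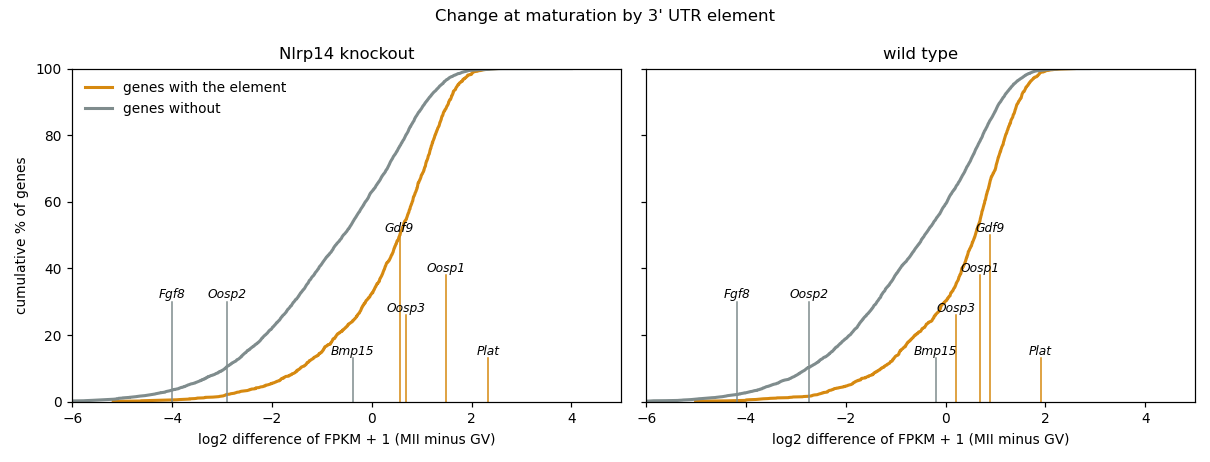
Cumulative percentage of tested genes (vertical axis) against their log2 difference of FPKM + 1, MII minus GV (horizontal axis), for KO (left) and WT (right). Genes with the 3′ element are orange and genes without are grey, and vertical lines mark the members in the colour of their class (line heights only separate the names). Fgf8 is drawn in grey, though it has no signal and could not be searched. Gdf9, Oosp1, Oosp3 and Plat lie to the right of 0, and Bmp15, Oosp2 and Fgf8 to the left, except that Bmp15 turned positive with median-of-ratios scaling and, in WT, with TPM.

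At MII itself no member passed the test between genotypes, with 0 of 6 tested genes called by limma, against 2.28% of all genes, and 2 of 6, Oosp1 and Oosp3, with an unadjusted p under 0.05, against 29.1% of all genes. Fgf8 was under the filter. Oosp1 was the member with the largest difference, 0.80 (SE 0.21, adjusted p = 0.0759), and every KO library lay above every WT library. Oosp3 differed by 0.60 (SE 0.21, adjusted p = 0.116), and its lowest KO library, at 1974 FPKM, lay below the highest WT library, at 2029 FPKM. Both genes are short, and KO MII replicates 2 and 3 had negative slopes on length. With the length trend removed the differences were 0.71 for Oosp1 (adjusted p = 0.0650) and 0.49 for Oosp3 (adjusted p = 0.116). Without KO replicate 1, 36.2% of all genes were called and 3 of 6 members: Oosp1 at 1.03 (adjusted p = 0.00381), Oosp3 at 0.83 (adjusted p = 0.00563) and Gdf9 at -0.35 (adjusted p = 0.0372).

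In PN5 zygotes Plat was higher and Oosp2 lower in KO. With 1 of 7 members called higher, against 0.569% of all genes, and 1 of 7 lower, against 5.53%, the members' median was -0.31, against 0.01 over all genes. Plat had 209.8, 122 and 225 FPKM in KO zygotes, against 37.1, 33.7 and 69.1 FPKM in WT zygotes (log2 2.00, SE 0.34, adjusted p = 0.0354). Oosp2 had 45.3, 59.1 and 33.2 FPKM in KO, against 322, 154 and 126 FPKM in WT (log2 -2.02, SE 0.37, adjusted p = 0.0364). In both genes the KO and WT libraries did not overlap, but the share of all genes without overlap was not counted at this stage.

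Gdf9 also stood above WT in every KO zygote library, with 1872, 1247 and 1740.5 FPKM in KO, against 536, 683 and 1146 FPKM in WT, but did not pass the test (log2 1.09, SE 0.31, adjusted p = 0.0702). Oosp1 and Oosp3 were not called, at -0.56 (SE 0.33) and -0.67 (SE 0.33), in groups that overlapped. The WT libraries were spread widely, since Oosp1 had 5517, 3274 and 2157 FPKM and Oosp3 4059, 2315 and 1652 FPKM in them, both highest in WT replicate 1, which had the most negative slope on length. Bmp15 and Fgf8 differed by -0.31 (SE 0.34) and -0.27 (SE 0.30).

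With the length trend removed, Plat and Oosp2 remained past the threshold, at 1.80 and -1.74 (adjusted p = 0.0389 for each), and so they did without WT replicate 1 (1.87, adjusted p = 0.0371, and -1.62, adjusted p = 0.0282). The Oosp2 call was lost with a pseudocount of 0.1 (adjusted p = 0.0501). Both calls were lost with median-of-ratios scaling, with TPM and without a filter (adjusted p = 0.0538 to 0.154), and without WT replicate 2 or any KO library (adjusted p = 0.0955 to 0.181). Without WT replicate 3, 5 members were called, Plat at 2.31, Gdf9 at 1.40, Oosp1 at -0.89, Oosp3 at -0.97 and Oosp2 at -2.29 (adjusted p = 0.00982 to 0.0350), with 32.9% of all genes called in that fit.

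The changes from MII to PN5 that led to these levels ran as follows. In KO, 5 of 7 members were called lower, against 10.4% of all genes, and 1 of 7, Fgf8, higher, against 22.5%. In WT, 2 of 7, Gdf9 and Plat, were called lower, against 4.44% of all genes, and 1 of 7, again Fgf8, higher, against 9.80%. Plat kept 24.4% of its MII mean in KO (log2 -2.01, SE 0.31, adjusted p = 0.00317) and 5.85% in WT (log2 -4.14, SE 0.28, adjusted p = 0.000805). Gdf9 kept 53.6% in KO (log2 -0.91, SE 0.20, adjusted p = 0.0116) and 22.7% in WT (log2 -2.21, SE 0.28, adjusted p = 0.00343). Oosp2 kept 40.0% in KO (log2 -1.30, SE 0.27, adjusted p = 0.00885), while in WT its difference was 0.66 (SE 0.34, adjusted p = 0.222). The KO calls of Fgf8, Oosp1 and Oosp3 were lost without MII replicate 3 (adjusted p = 0.0580 to 0.0959), those of Fgf8 and Oosp3 without MII replicate 2 (0.0513 and 0.0624), and those of Oosp1 or Oosp3 without single PN5 libraries (0.0571 to 0.0899).

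The genotypes differed in these changes for 3 members by the interaction test. Plat (2.13, SE 0.46, adjusted p = 0.0446) and Gdf9 (1.30, SE 0.36, adjusted p = 0.0498) were 2 of 7 called higher, against 2.86% of all genes, and Oosp2 (-1.96, SE 0.47, adjusted p = 0.0452) was 1 of 7 called lower, against 4.59%. Oosp1 and Oosp3 fell in KO by 0.93 and 0.79 on the log2 scale (adjusted p = 0.0160 and 0.0225), and their interactions were -1.36 (adjusted p = 0.0584) and -1.27 (adjusted p = 0.0616). These calls lie close to the threshold. None of the 3 was called with the length trend removed, with TPM, with a pseudocount of 0.1 or without a filter. Nor was any of them called without KO MII replicate 2 and WT PN5 replicate 1 together, which had the most negative slopes at their stages. Leaving out single libraries gave 0 to 5 calls, with 5 of 7 without KO MII replicate 1, against 26.5% of all genes, 5 of 7 without WT PN5 replicate 3, against 41.4% of all genes, and 0 without any other.

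Fgf8 was called higher at PN5 than at MII in both genotypes, at 1.84, 3.45 and 1.00 FPKM in KO zygotes and 2.36, 2.66 and 2.60 FPKM in WT zygotes (log2 0.98, SE 0.28, adjusted p = 0.0289 in KO and 1.11, SE 0.16, adjusted p = 0.00561 in WT). These values remained far below those of GV oocytes.

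**Figure D3:**
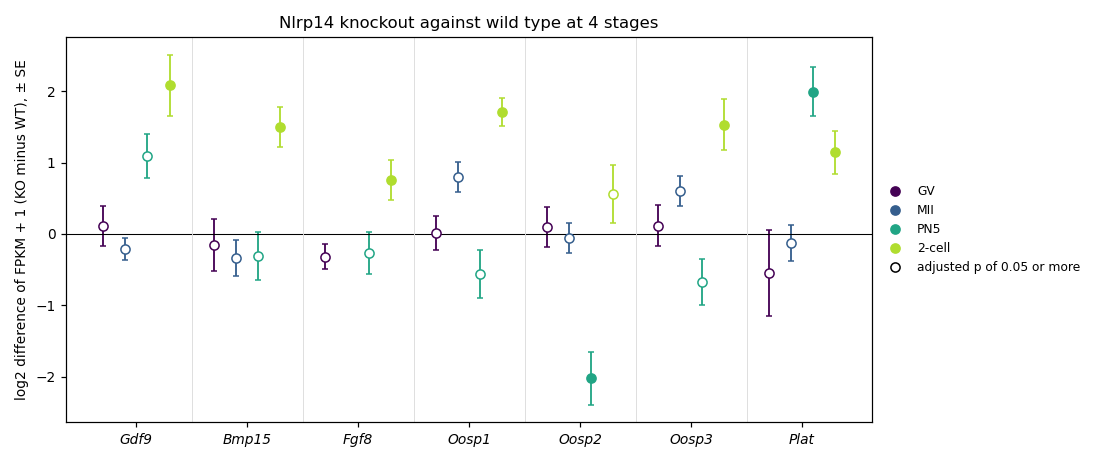
Log2 difference of FPKM + 1, KO minus WT, of the 7 genes at the 4 stages (vertical axis, points ± SE, 3 KO and 3 WT libraries each, stages from left to right). Filled points passed an adjusted p of 0.05. At the 2-cell stage 6 of 7 points are filled and above 0, at GV none is filled, and Fgf8 at MII is missing because it was under the filter.

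At the 2-cell stage 6 of 7 members were called higher in KO embryos, against 14.0% of all genes tested, and none lower, against 40.3% of all genes. For those 6 every KO library lay above every WT library, as was so for 17.5% of all genes. The members' median was 1.50, against -0.44 over all genes. In KO embryos the members made up 0.974 ± 0.121% of the summed FPKM, against 0.331 ± 0.0633% in WT embryos (SD, n = 3 each), while at GV, MII and PN5 their share was 1.83, 3.37 and 1.94% in KO and 1.79, 3.04 and 2.03% in WT. Between 11736 and 12037 genes reached 1 FPKM in the KO 2-cell libraries, against 14128 to 14561 in the WT ones, and the part of this gap in the members' differences was not tested.

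Gdf9 had 173, 227 and 194 FPKM in KO 2-cell embryos, against 57.0, 79.0 and 20.7 FPKM in WT embryos, a ratio of means of 3.79 (log2 2.09, SE 0.43, adjusted p = 0.00391). Its partner ligand Bmp15 had 744, 763 and 672 FPKM in KO, against 167, 370.5 and 270.4 FPKM in WT, a ratio of 2.70 (log2 1.50, SE 0.28, adjusted p = 0.00247). All KO libraries lay above all WT libraries for both ligands. Fgf8 had 1.65, 2.07 and 2.88 FPKM in KO, against 1.35, 1.06 and 0.351 FPKM in WT (log2 0.76, SE 0.28, adjusted p = 0.0468). Its groups did not overlap, but the call was lost without any single library other than KO replicate 1 (adjusted p = 0.0504 to 0.142).

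Among the oocyte-secreted proteins, Oosp1 had 2930.1, 3236 and 2714 FPKM in KO, against 782, 809.8 and 1164 FPKM in WT, and was the member with the smallest adjusted p (log2 1.71, SE 0.20, adjusted p = 0.000424). Oosp3 had 680.02, 1181 and 763 FPKM in KO, against 178, 296 and 477 FPKM in WT (log2 1.53, SE 0.36, adjusted p = 0.00724). Neither gene's groups overlapped. Oosp2 had 49.3, 89.8 and 41.4 FPKM in KO, against 20.9, 44.6 and 59.4 FPKM in WT, groups that overlapped (log2 0.56, SE 0.41, adjusted p = 0.281). The protease gene Plat had 6.86, 13.3 and 9.68 FPKM in KO, against 5.42, 3.38 and 2.92 FPKM in WT, without overlap (log2 1.15, SE 0.30, adjusted p = 0.0115).

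The calls of Gdf9, Bmp15, Oosp1, Oosp3 and Plat held without each library in turn and under every other setting tried. The 2-cell defining genes, such as Zscan4f, summed to 2024 to 3139 FPKM in KO 2-cell libraries, against 1184 to 1709 FPKM in WT ones. The granulosa and cumulus markers summed to 11.6 to 15.4 FPKM in KO and 28.6 to 46.0 FPKM in WT, mainly Tnfaip6, which averaged 4.56 FPKM in KO and 25.2 FPKM in WT, and 10 of the 24 markers, Amh among them, were at 0 in all libraries of each group. The blood, stroma and oviduct markers summed to 27.9 to 40.1 FPKM in KO and 102 to 186 FPKM in WT, where Epcam was the most abundant, as Hba-a1 was in KO. Both sums were lower in KO, where the members were higher, and their part in the members' differences was not tested.

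From PN5 to the 2-cell stage all 7 members fell in WT, against 14.8% of all genes called lower. In KO, 3 of 7, Gdf9, Oosp3 and Plat, were called lower, against 26.8% of all genes, and 2 of 7, Bmp15 and Oosp1, higher, against 43.8%, though Oosp1 turned negative with TPM and with the length trend removed. Gdf9 kept 12.2% of its PN5 mean in KO (log2 -3.01, SE 0.18, adjusted p = 6.72e-06) and 6.63% in WT (log2 -4.01, SE 0.49, adjusted p = 0.000145). Plat kept 5.34% in KO (log2 -4.09, SE 0.29, adjusted p = 1.65e-05) and 8.38% in WT (log2 -3.24, SE 0.34, adjusted p = 6.53e-05). For these genes the fall did not differ between genotypes past the threshold, with interactions of 1.00 (SE 0.58, adjusted p = 0.178) for Gdf9 and -0.85 (SE 0.48, adjusted p = 0.162) for Plat. The Plat interaction was called without WT PN5 replicate 3 (-1.17, adjusted p = 0.0437). Among the WT falls, that of Bmp15 was lost without PN5 replicate 2 or 3 or 2-cell replicate 1 or 3 (adjusted p up to 0.102), and that of Fgf8 without 2-cell replicate 3 (0.0877).

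For Bmp15 and the Oosp genes the change from PN5 to the 2-cell stage did differ between genotypes, with 4 of 7 interactions called higher, against 13.8% of all genes. Bmp15 stood at 154% of its PN5 mean in KO 2-cell embryos (log2 0.69, SE 0.25, adjusted p = 0.0388) and at 46.9% in WT embryos (log2 -1.12, SE 0.35, adjusted p = 0.0227), with an interaction of 1.81 (SE 0.47, adjusted p = 0.00778). Oosp1 stood at 128% in KO (log2 0.36, SE 0.12, adjusted p = 0.0289) and at 25.2% in WT (log2 -1.91, SE 0.37, adjusted p = 0.00192), with an interaction of 2.27 (SE 0.41, adjusted p = 0.00104). The interactions of Oosp2 and Oosp3 were 2.58 (SE 0.61, adjusted p = 0.00485) and 2.20 (SE 0.53, adjusted p = 0.00518). All 4 held without each library in turn and under every other setting, while the KO rises of Bmp15 and Oosp1 taken alone were lost with TPM (log2 0.06, adjusted p = 0.863, and -0.27, adjusted p = 0.0765). Of the members, 5 were called in this KO step in the main fit. Only 3 were called without a filter, with TPM, with median-of-ratios scaling or with all 24 libraries in 1 fit. The KO rise of Bmp15 was also lost without each of 5 KO libraries (adjusted p = 0.0666 to 0.0920), and that of Oosp1 without each of 4 (adjusted p = 0.0594 to 0.0962).

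Relative to the GV oocyte, the members differed widely in how much of their level remained at the 2-cell stage. Oosp1 stood at 182% of its GV mean in KO and 59.0% in WT, Bmp15 at 98.7% in KO and 35.8% in WT, and Oosp3 at 49.5% in KO and 20.4% in WT. The KO GV mean of Bmp15 was drawn down by replicate 3, at 359.6 FPKM, against 960.4 and 889 FPKM in replicates 1 and 2. As a share of summed FPKM, Bmp15 had 0.257, 0.235 and 0.0788% in KO GV libraries and 0.146, 0.154 and 0.138% in KO 2-cell libraries. The 2-cell stage was not tested against GV. Gdf9 stood at 9.28% in KO and 2.78% in WT, Fgf8 at 9.63% in KO and 3.20% in WT, and Plat at 5.46% in KO and 1.84% in WT. Oosp2, whose main fall came at maturation, stood at 6.87% in KO and 5.24% in WT. The order of the levels had changed with this. In both genotypes Oosp1 came first, followed by Oosp3 and Bmp15, which overlapped, and Gdf9 stood at 271st among all genes in KO and 1101st in WT.

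**Figure D4:**
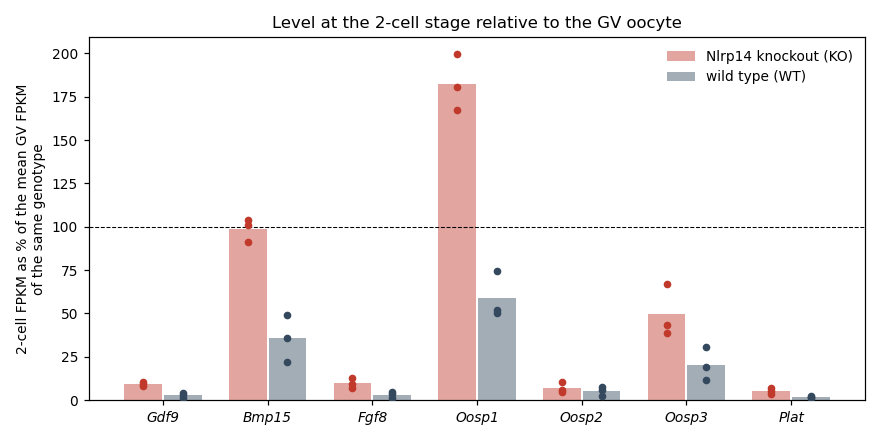
FPKM of 2-cell embryos as a percentage of the mean GV FPKM of the same genotype, for the 7 genes, with KO left of WT. Bars are means of 3 libraries, dots are libraries and the dashed line is the GV level. Oosp1 in KO stands at 182% and Bmp15 in KO at 98.7%, while Gdf9, Fgf8, Oosp2 and Plat stand between 1.84 and 9.63% in both genotypes. The KO GV mean of Bmp15 includes the low replicate 3, at 359.6 FPKM, and the 2-cell stage was not tested against GV.

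Receptors of the TGF-beta superfamily, among them those through which GDF9 and BMP15 act, were measured at low levels in the same oocytes. Of 10 receptor genes, 6 of 7 tested were called higher at MII than at GV in KO (20.8% of all genes, median 0.76, against -0.61 over all genes) and 7 of 9 in WT (31.1% of all genes, median 0.82, against -0.50). Bmpr2, the type II receptor of both ligands, averaged 6.55 ± 1.40 FPKM in KO and 10.1 ± 0.318 FPKM in WT MII oocytes, and was called higher there than at GV in both (log2 1.05 in KO and 1.18 in WT). Bmpr1b, a type I receptor for BMP15, averaged 16.9 ± 3.44 FPKM in KO and 22.4 ± 0.579 FPKM in WT MII oocytes. Between genotypes, 3 of 6 were called lower in KO 2-cell embryos, against 40.3% of all genes (median -0.91, against -0.44 over all genes), a share near that of all genes. These were Bmpr1a (log2 -1.98, SE 0.24), Tgfbr1 (-1.64, SE 0.22) and Acvr2a (-1.40, SE 0.22). By limma 0 of 5, 0 of 9 and 0 of 6 were called at GV, MII and PN5, with 0, 4 and 1 at an unadjusted p under 0.05, against 11.8%, 29.1% and 31.3% of all genes.

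Of 8 SMAD genes, 1 of 5 tested was called between genotypes at the 2-cell stage, where 14.0% of all genes were called higher and 40.3% lower. This was the inhibitory Smad7, lower in KO at 0.129 FPKM against 2.44 FPKM in WT (log2 -1.59, SE 0.22). Smad3, which carries signals of GDF9 in granulosa cells, was called higher at MII than at GV in KO (log2 1.35, SE 0.25) and WT (1.36, SE 0.10). Of 11 convertases and antagonists, 1 of 2 tested was called lower in KO at the 2-cell stage, against 40.3% of all genes. This was the pseudoreceptor gene Bambi (log2 -1.22, SE 0.30). Among 19 other ligands of the superfamily, 1 of 4 tested was called higher in KO at that stage, against 14.0% of all genes. This was Bmp5, which averaged 206 ± 12.8 FPKM in KO and 110.4 ± 35.7 FPKM in WT 2-cell embryos (log2 0.95, SE 0.26, adjusted p = 0.0140). Bmp5 rose from GV to MII in both genotypes (log2 1.27 in KO and 1.24 in WT), while Tgfb3 (-2.22 and -2.36) and Inha (-2.21 and -2.22) fell. At this step 1 of 5 tested ligands was called higher and 2 lower in KO, against 20.8% and 48.2% of all genes. In WT, 2 of 5 were called higher and 3 lower, against 31.1% and 52.8%.

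Of 15 FGF receptor and feedback genes, 3 of 8 tested were called lower and none higher in KO 2-cell embryos (median -0.49), near the 40.3% called lower and the median of -0.44 over all genes. They were the FGF-responsive genes Etv5 (log2 -1.61, SE 0.28), Spry2 (-1.53, SE 0.28) and Dusp6 (-1.53, SE 0.31). Fgf8 itself was higher there, though its call rested on the setting. Of 14 genes of the plasminogen system, Serpine2, which encodes a secreted serpin that inhibits plasminogen activators, moved with Plat at maturation. It averaged 202 ± 5.07 FPKM in KO MII oocytes and 52.3 ± 20.7 FPKM in KO GV oocytes (log2 2.02, SE 0.33), and 163 ± 5.98 FPKM and 52.8 ± 3.63 FPKM in WT at the same stages (log2 1.61, SE 0.07). Others of the list fell at this step, such as Anxa2 (log2 -2.42 in KO and -2.84 in WT) and Cpb2 (-1.64 and -1.61). In KO, 1 of 5 tested genes was called higher and 3 lower from GV to MII, against 20.8% and 48.2% of all genes. In WT, 2 of 5 were called higher and 2 lower, against 31.1% and 52.8%. At the 2-cell stage 1 of 5 tested genes was called higher and 3 lower in KO (median -0.90), against 14.0% and 40.3% of all genes and a median of -0.44, among them Serpini1 (log2 -1.78, SE 0.29). Plg, which encodes the substrate of the protease, averaged at most 0.0687 FPKM in any group.

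The 15 maternal mRNAs that gain poly(A) at maturation gave 7 called higher and 2 lower in KO 2-cell embryos, against 14.0% higher and 40.3% lower over all genes (median 0.43, against -0.44). Btg4, an adaptor of the deadenylase complex that clears maternal mRNA, averaged 3892 ± 190 FPKM in KO and 1217 ± 418 FPKM in WT 2-cell embryos (log2 1.73, SE 0.24, adjusted p = 0.000822). Of 19 genes for polyadenylation and masking of stored mRNA, 2 of 16 tested were called higher and 5 lower in KO 2-cell embryos (median -0.23), both below the shares of all genes. Zar1 was among the higher ones (log2 1.49, SE 0.28) and the cleavage factor gene Cpsf3 among the lower ones (-1.93, SE 0.25). Of 9 oocyte transcription regulators, 3 of 9 were called higher and 2 lower in KO 2-cell embryos, against 14.0% and 40.3% of all genes. Their median was 0.04, against -0.44 over all genes. Tbpl2, the oocyte TBP paralogue, averaged 22.0 ± 4.38 FPKM in KO and 4.09 ± 2.30 FPKM in WT (log2 2.28, SE 0.37).

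Over the 24 libraries the members fell into several courses. Gdf9 and Plat ran closest together, with a Pearson correlation of log2(FPKM + 1) of 0.955, and Fgf8 and Oosp2 had 0.821, while Oosp1 and Oosp2 had -0.02. These points share stage, library and depth, so the values describe the courses only. Among 9399 genes, the most alike were D030018L15Rik (0.975), Slc7a11 (0.966) and H1foo (0.965) for Gdf9, and Lamb1 (0.987), Gdpd1 (0.986) and Npc1 (0.965) for Plat. For Bmp15 the highest values were lower, with Rnf5 at 0.885, Gm18101 at 0.852 and Ywhae at 0.852. The most alike to Fgf8 were Mrnip (0.986), Rnaset2b (0.983) and Rnaset2a (0.983), the last pair near-identical genes whose reads may be shared. For Oosp2 they were Mnd1 (0.984), Dld (0.977) and Gm31678 (0.970). For Oosp1 they were Gm13080 (0.949), Trappc2 (0.944) and Pigf (0.941), and for Oosp3 Obox1 (0.978), Nae1 (0.972) and Fbxw22 (0.961).

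Oosp1 and Oosp2, neighbours on the same strand with opposite courses at maturation, are shown with the sequence around their starts. A RefSeq table of promoters on GRCm38.p6, from 250 bases before to 50 bases after each start, held 3 of the 7 members, Bmp15, Oosp1 and Oosp2. E-boxes (CANNTG, which reads the same on both strands) are binding sites of basic helix-loop-helix factors such as FIGLA and SOHLH1, and are marked in capitals. Oosp1 held 5 and Oosp2 and Bmp15 held 1 each, against a median of 1 over 32851 promoters, of which 72.3% held at least 1 and 2.10% at least 5. A match is not a bound site.
Oosp1 (chr19:11691002-11691301, - strand): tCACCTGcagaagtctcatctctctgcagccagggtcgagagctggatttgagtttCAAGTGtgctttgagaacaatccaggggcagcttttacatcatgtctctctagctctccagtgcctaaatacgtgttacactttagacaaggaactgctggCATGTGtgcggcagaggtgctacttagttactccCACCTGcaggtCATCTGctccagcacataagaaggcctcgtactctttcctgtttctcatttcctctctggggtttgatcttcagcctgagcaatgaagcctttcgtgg
Oosp2 (chr19:11660510-11660809, - strand): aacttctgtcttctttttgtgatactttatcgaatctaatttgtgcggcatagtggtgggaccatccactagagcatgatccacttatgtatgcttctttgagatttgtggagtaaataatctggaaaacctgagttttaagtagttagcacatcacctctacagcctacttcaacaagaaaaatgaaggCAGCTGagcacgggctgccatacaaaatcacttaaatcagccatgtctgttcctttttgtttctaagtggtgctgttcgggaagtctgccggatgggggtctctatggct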

How the data were processed

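Per the labels' protocols, pools of 5 oocytes or embryos were lysed and their RNA was converted with the SMART-Seq HT kit. The authors deposited 1 file of FPKM values per library. Per the submitters' processing notes, StringTie and GRCm38 were used. The sources used here do not give versions, aligner, annotation release or filters, and no scaling between libraries was stated. Groups and replicate numbers came from the sample labels. GENCODE M21 matched 55227 of the 55487 identifiers, and no pair of libraries held identical values. Depth was read from the steps of FPKM times length in 34257 genes with 1 transcript, of which 98.8 to 99.2% of low values were whole fragments (tolerance 0.02). Genes with several transcripts give no whole fragments, so no count model was used.

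Values were fitted as log2(FPKM + 1) with limma 3.58.1 in R 4.3.3 (package data.table, version 1.17.8), with a mean per group and empirical Bayes variances (trend, robust), on genes that reached 1 FPKM in at least 3 libraries of the comparison. The 13 comparisons were KO against WT at each stage, successive stages within each genotype, and the interactions. The fits were tested on simulated data. Figures and sequence searches used Python 3.11.15 (numpy 2.4.6, pandas 2.3.3, matplotlib 3.10.9).

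The alternatives were a pseudocount of 0.1, no filter, a mean of at least 5 FPKM, TPM, median-of-ratios scaling, removal of the length trend, all 24 libraries in 1 fit, a replicate block and leaving out each library. The members and the 14 gene lists were chosen with earlier results of these data known. The rule for named genes took the members, the 3 genes most correlated with each over the 24 libraries (mean of at least 5 FPKM in a group), and from each list the called genes, or the 3 with the smallest p where more were called. Further genes of the lists (Mos, Btg4, Bmpr1b, Bmpr2, Tnfaip6, Epcam, Amh, Cyp19a1, Plg, Zp3, Npm2, Zscan4f) are named as examples of levels. Promoter sequences are RefSeq's.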

Additional observations from a re-analysis of the deposited data

Results flagged for a closer look

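The change between successive stages differed between genotypes for 7 gene and stage combinations, by the test of the interaction of genotype with stage. These were 3 of 7 members from MII to PN5, against 7.45% of all genes, and 4 of 7 from PN5 to the 2-cell stage, against 45.8%. The 3 from MII to PN5 had an adjusted p of 0.0446 to 0.0498. None of them was called with TPM, with a pseudocount of 0.1, without a filter or with the length trend removed. From MII to PN5 the interaction was 2.13 for Plat and 1.30 for Gdf9, genes that fell in both genotypes, and less in KO. It was -1.96 for Oosp2, which was called lower at PN5 in KO and not in WT. From PN5 to the 2-cell stage it was 2.58 for Oosp2, 2.27 for Oosp1, 2.20 for Oosp3 and 1.81 for Bmp15, and all of them fell in WT in that step. In KO, Oosp3 also fell, by 0.88 on the log2 scale, against 3.09 in WT, while Oosp1 and Bmp15 were called higher and Oosp2 was not called. The Oosp2 interactions of the successive steps have opposite signs and share the PN5 libraries.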

How the results depend on the processing

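Under the settings other than leaving out a library, 641 single-gene values kept their direction and their side of the threshold, 50 lost a call, 15 gained one and 25 changed sign. The counts of called members that changed by over 1.5 times were the following. KO against WT at PN5 gave 1 with a pseudocount of 0.1 and 0 without a filter, with TPM, with median-of-ratios scaling and with the replicate block, against 2. PN5 against MII in KO gave 2 without a filter, against 6. The 2-cell stage against PN5 in KO gave 3 without a filter, with TPM, with median-of-ratios scaling and with all 24 libraries in 1 fit, against 5. The interaction from MII to PN5 gave 5 with a mean of at least 5 FPKM and 0 with a pseudocount of 0.1, without a filter, with TPM, with the length trend removed, with the replicate block and without the libraries tilted to short genes, against 3. That last setting was chosen after seeing the data. Median-of-ratios scaling shifted the median of all genes by 0.22 for KO against WT at MII, 0.43 at the 2-cell stage, -0.24 and -0.22 for the later KO steps and -0.48 for WT from PN5 to the 2-cell stage. TPM shifted it by -0.18 at MII, 0.18 at PN5, and -0.45 in KO and -0.19 in WT from PN5 to the 2-cell stage. The values that changed sign with TPM were -0.071 for Oosp1 at GV, 0.095 for Bmp15 in WT from GV to MII, -0.37, -0.27 and -0.28 for Fgf8, Oosp1 and Oosp2 in KO from PN5 to the 2-cell stage, and 0.22 for the Fgf8 interaction from MII to PN5. With median-of-ratios scaling they were 0.057, 0.21 and 0.14 for Gdf9, Oosp2 and Plat at MII, 0.19 in WT and 0.18 in KO for Bmp15 from GV to MII, and -0.052 for Fgf8 in KO from PN5 to the 2-cell stage. The interactions with that scaling were 0.0025 for Bmp15 and 0.026 for Oosp2 from GV to MII, and -0.28 for Bmp15 from MII to PN5. With the length trend removed they were -0.027 for Oosp1 at GV, -0.15, -0.068 and -0.28 for Fgf8, Oosp1 and Oosp2 in KO from PN5 to the 2-cell stage, and -0.033 and 0.039 for the Bmp15 and Fgf8 interactions from MII to PN5. The Fgf8 interaction from GV to MII was -0.044 with a pseudocount of 0.1. Without the libraries tilted to short genes it was -0.016, that of Plat -0.060, and that of Bmp15 from MII to PN5 -0.54. The causes of these changes were not tested. Leaving out each library gave 0 to 2 called members at GV, 0 to 3 at MII, 0 to 5 at PN5 and 5 to 6 at the 2-cell stage for KO against WT. It gave 5 to 7, 2 to 3 and 5 to 7 for the WT steps in order, 3 to 4, 3 to 6 and 3 to 4 for the KO steps, and 0, 0 to 5 and 4 to 5 for the interactions. Fgf8 missed the filter in some of these fits. Of the values that changed sign in this way, those at GV ranged from -0.057 to 0.45 for Gdf9, -0.41 to 0.30 for Bmp15, -0.24 to 0.20 for Oosp1, -0.18 to 0.28 for Oosp2, -0.21 to 0.30 for Oosp3 and -0.99 to 0.23 for Plat. At MII they ranged from -0.23 to 0.17 for Oosp2 and -0.37 to 0.17 for Plat, and at PN5 from -0.57 to 0.0079 for Fgf8. From MII to PN5 Bmp15 ranged from -0.42 to 0.019 in WT and -0.52 to 0.079 in KO, and from PN5 to the 2-cell stage Fgf8 ranged from -0.17 to 0.41 in KO. The interactions from GV to MII ranged from -0.64 to 0.13 for Bmp15, -0.34 to 0.12 for Oosp2 and -0.35 to 0.86 for Plat, and those from MII to PN5 from -0.28 to 0.31 for Bmp15 and -0.43 to 0.15 for Fgf8. In none of 10 comparisons between groups did all 3 pairs of same-numbered libraries deviate together (correlation over 0.1). Their correlations ranged from -0.40 to 0.52 in KO from GV to MII and from 0.05 to 0.23 in WT from MII to PN5. The labels give these libraries only a number in common, and whether they shared a batch was not tested. With the replicate block, Plat and Oosp2 at PN5 had an adjusted p of 0.0501 each. Fgf8 after GV rests on few fragments, which limits its precision.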
